A study of Mus musculus with 6 samples.

Results

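The genes described here are Myc, its dimerisation network and a panel of nucleolar, ribosome assembly and metabolic genes that are commonly counted as Myc targets. They were chosen by name, with earlier results of these data known. There were 34 genes in all: 6 of the network (Myc, Max, Mxd1, Mxd3, Mxd4 and Mxi1) and 28 target genes. Of these, 33 of 19938 genes on the array had a probe set of their own. Ppan, a large subunit assembly gene, was not analysed here, because its probe set also lists another gene. A gene with several probe sets was read from the brightest.

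RNA came from mouse pre-B cells transformed by BCR-ABL1, a fusion kinase that drives a form of acute B-cell leukaemia, in a strain cross labelled 129SvEv x C57BL/6J at 5 weeks of age. Every sample, controls included, carried homozygous floxed Sox4 (Sox4fl/fl), the gene of a transcription factor active in B-cell progenitors. The 3 control samples were transduced with ERT2 alone, a receptor domain that binds 4OHT, and the 3 deletion samples Cre-ERT2, a recombinase activated by 4OHT (4-hydroxytamoxifen). The study's design text places RNA extraction 24 h after 4OHT, so the comparison asks what differs at that time after Sox4 deletion was started. The labels do not state outright that the ERT2 samples also received 4OHT. If they did not, an effect of 4OHT itself would be part of every difference. No sample pairs Cre-ERT2 with intact, unfloxed Sox4, and thus Cre activity and Sox4 loss cannot be told apart. The labels do not say whether the 3 samples of a group were separate cultures, so the p-values refer to the scatter of these 6 arrays, part or all of which may be technical.

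The check of the labels was clear: Sox4 read 1237 to 1459 intensity units on the ERT2 arrays and 499 to 599 on the Cre-ERT2 arrays. B-lineage markers were bright, with mean log2 levels from 9.84 to 14.21 for 9 of 10 genes measured, although Dntt, the terminal transferase, rose by 1.33 and Rag1, a recombinase, fell by 0.89. T-cell, erythroid and stromal markers had means between 6.46 and 9.09, and 0 of their 13 measured genes passed. Of 7 myeloid markers 1 rose (Lyz2, a lysozyme, by 1.40 on the log2 scale) and 1 fell (Itgam, an integrin chain, by 0.49), and their summed intensity was 1212 to 1275 in ERT2 and 1667 to 1859 in Cre-ERT2 samples. Lyz2 alone carried that sum: without it the other 6 came to 896 to 906 and 835 to 878, and 4 of the 7 had a negative difference. Without ERT2 replicate 1 or Cre-ERT2 replicate 2 the fall of Itgam was not called (-0.50 in both cases; limma adjusted p = 0.0574 and 0.0558). The part of the myeloid markers in the results below was not tested. In such bulk RNA, fewer cells of a type and less RNA per cell cannot be told apart.

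Myc encodes a transcription factor that binds DNA as a dimer with Max at the hexamer CACGTG, called the E-box, and drives growth genes, above all those that make ribosomes. The Mxd proteins and Mxi1 also pair with Max, occupy the same hexamer and repress, so the balance between these partners and Myc is a classic switch between growth and differentiation. Ribosome production starts in the nucleolus with RNA polymerase I, continues with snoRNP particles that modify ribosomal RNA, and ends with assembly factors of the small and the large subunit. BCR-ABL1 leukaemia cells are known to depend on Myc.

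Where RefSeq promoter windows (GRCm38.p6, 250 bases before to 50 bases after a gene's start, 300 in all) were given for measured members, they were searched for CACGTG, which reads alike on both strands. A window was found for 26 members, and 8 of them (30.8%) held the hexamer: Max and Mxd4 in the network, and Hspd1, Nop2, Pes1, Utp20, Wdr43 and Mybbp1a among the targets. For all 27025 genes with a window the share was 8.09%, and for 5510 genes at least as bright on the array as the dimmest target it was 13.2%. The sites are shown because they are the letters at which Myc-Max and Mxd-Max dimers can bind; capitals mark the hexamer and each runs 5′ to 3′ on the gene's strand.
Max: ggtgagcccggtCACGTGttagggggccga
Hspd1: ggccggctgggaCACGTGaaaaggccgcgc
Nop2: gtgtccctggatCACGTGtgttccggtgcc
Pes1: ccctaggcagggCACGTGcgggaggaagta
Wdr43: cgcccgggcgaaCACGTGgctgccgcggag
Utp20: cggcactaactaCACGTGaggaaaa
Mybbp1a: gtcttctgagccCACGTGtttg
Coordinates below span the whole stretch shown, and distances are counted to the first base of the hexamer. The Max hexamer (chr12:76962234-76962263, minus strand) began 3 bases before the start, that of Nop2 (chr6:125131811-125131840, plus) 60 bases and that of Hspd1 (chr1:55088306-55088335, minus) 80 bases before it. The other hexamers shown above began just after the start, at base 3 for Pes1 (chr11:3963965-3963994, plus), 18 for Wdr43 (chr17:71616220-71616249, plus), 38 for Utp20 (chr10:88826765-88826789, minus) and 41 for Mybbp1a (chr11:72441355-72441376, plus).

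Of the 4 members that rose after Cre-ERT2 (below), Mxd4 and Utp20 held the hexamer and Nolc1 and Mxd1 did not in this window. The 250 bases before the start are given for Mxd4 (chr5:34187711-34187960, minus strand, 58.0% G and C), as the risen network gene with an E-box, and for Nolc1 (chr19:46075597-46075846, plus strand, 56.4% G and C), as the target with the largest rise.
Mxd4: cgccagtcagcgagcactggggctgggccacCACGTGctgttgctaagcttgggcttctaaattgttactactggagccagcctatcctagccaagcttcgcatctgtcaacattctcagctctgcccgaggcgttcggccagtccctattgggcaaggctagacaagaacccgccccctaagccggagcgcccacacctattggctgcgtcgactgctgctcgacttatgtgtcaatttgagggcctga
Nolc1: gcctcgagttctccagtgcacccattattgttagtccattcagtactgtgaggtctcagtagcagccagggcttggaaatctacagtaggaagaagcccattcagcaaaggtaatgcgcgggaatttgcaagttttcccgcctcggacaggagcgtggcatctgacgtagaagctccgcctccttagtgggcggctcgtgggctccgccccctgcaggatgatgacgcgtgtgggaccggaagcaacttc
The Mxd4 hexamer began 219 bases before the start, and no other letters are in capitals. Among targets with a window, the 6 that held CACGTG had a median log2 difference of 0.10 (0.05 to 0.42) and the 15 that did not had 0.12 (-0.02 to 0.43). Both sets of targets thus reached from about 0 to above 0.4.

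Across the panel 4 of 33 measured members rose and 0 fell in Cre-ERT2 cells at a limma adjusted p under 0.05: Nolc1, Utp20, Mxd4 and Mxd1. Myc itself lay slightly lower without passing the test, and 26 of the 27 measured targets had a difference above 0, mostly small. That is 12.1% of members called higher, against 4.38% of all genes higher and 3.72% lower. Among genes at least as bright as the dimmest target the share called higher was 6.18%, and 7.41% of the targets (2 of 27) were called, which is near that background. At an unadjusted p under 0.05 the fit held 12 of the 33 members (36.4%), against 20.1% of all genes and 28.2% of the bright ones. With 1 array left out, 1 member was called without ERT2 replicate 1 or 3 or Cre-ERT2 replicate 2 or 3, while removing Cre-ERT2 replicate 1 left 2 calls and removing ERT2 replicate 2 gave 3. All differences are Cre-ERT2 minus ERT2 on the log2(intensity + 1) scale, and adjusted p-values are limma's over all 35556 probe sets.

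**Figure D1:**
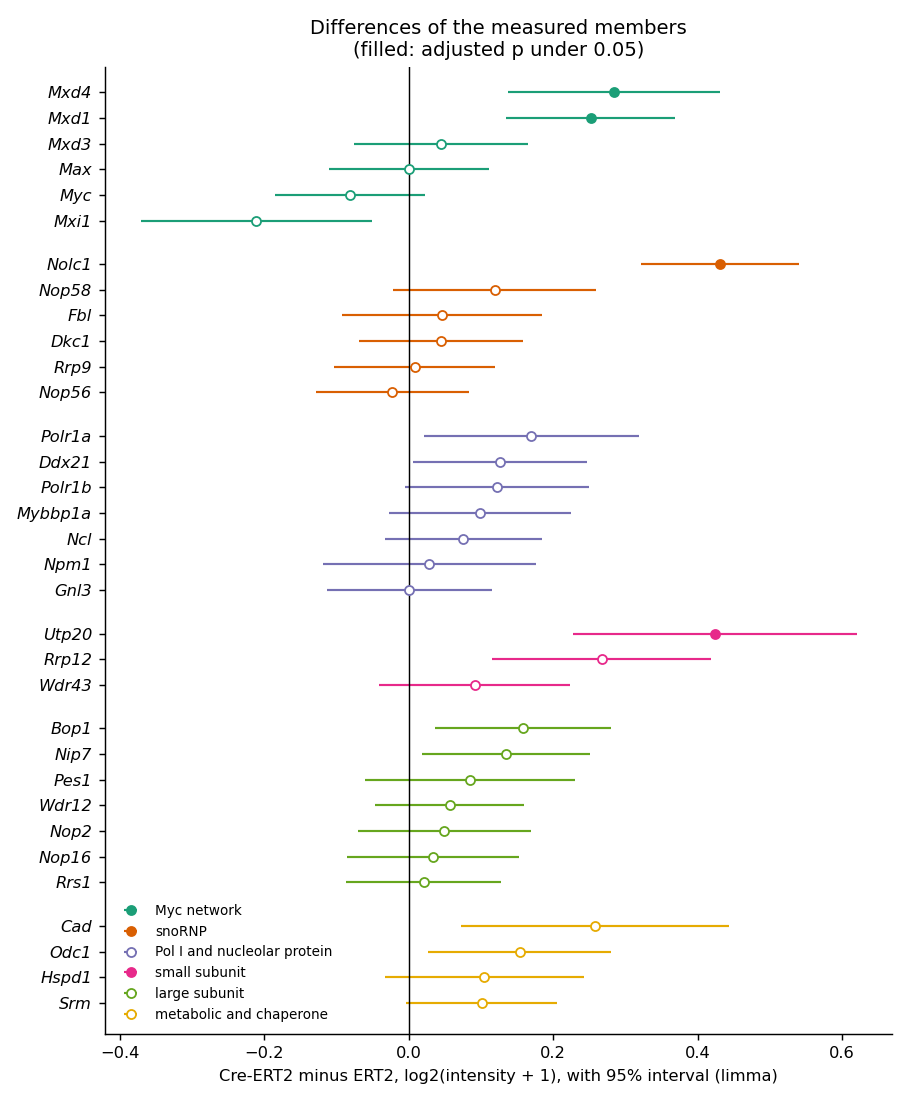
Log2 difference (horizontal axis, Cre-ERT2 minus ERT2, 3 arrays each) of the 33 measured members, with limma's 95% interval as bars and colours by role; filled points passed adjusted p under 0.05. Nolc1 and Utp20 stand farthest to the right at 0.43 and 0.42, Mxi1 farthest to the left at -0.21.

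Myc was read at 13.49, 13.47 and 13.48 on the log2 scale in the 3 ERT2 samples and at 13.42, 13.37 and 13.40 in the 3 Cre-ERT2 samples. Every Cre-ERT2 array thus lay below every ERT2 array, by little. The difference was -0.08 (SE 0.043, 95% interval -0.19 to 0.02, limma adjusted p = 0.428), or 94.5% of the control level. In intensity units the means were 11408 ± 65.3 (SD, n = 3) and 10779 ± 164 (SD, n = 3). Exchanging group labels in every way (exact permutation, two-sided) gave p = 0.1, the smallest that 3 arrays a group allow, so the groups separate but the test cannot pass 0.05. Over all genes, every Cre-ERT2 array lay below every ERT2 array in 10.8% and above in 17.5%. In this fit, the interval leaves out a fall of Myc by more than 0.19, at this probe set. With arrays centred on the genes at least as bright as the dimmest target, the difference was -0.11 (SE 0.052). The bound does not carry over to that setting.

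Max, the obligate partner of Myc, read 12.07, 12.13 and 12.07 in ERT2 and 12.08, 12.12 and 12.07 in Cre-ERT2 samples (difference 0.00, 95% interval -0.11 to 0.11). Its groups overlapped fully.

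Mxd1, a repressor partner of Max known from differentiating blood cells, rose. It read 9.20, 9.17 and 9.20 in ERT2 and 9.50, 9.40 and 9.43 in Cre-ERT2 samples, so the groups were apart by more than the spread within either. The rise was 0.25 (SE 0.049, limma adjusted p = 0.0322), to 119% of the control level. Mxd4, a relative that is high in resting cells, read 10.09, 9.99 and 10.06 against 10.36, 10.39 and 10.24. It rose by 0.28 (SE 0.061, limma adjusted p = 0.0485), and its Cre-ERT2 values spread more (SD 0.082) than its controls (SD 0.055). Neither call held when any 1 of the 6 arrays was left out (limma adjusted p from 0.0702 to 0.127 for Mxd1 and from 0.0662 to 0.173 for Mxd4), although the differences stayed between 0.22 and 0.33.

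Mxi1 went the other way, at 9.59, 9.68 and 9.53 in ERT2 and 9.47, 9.39 and 9.30 in Cre-ERT2 samples. All 3 Cre-ERT2 arrays were below the controls, but its difference of -0.21 (SE 0.067, limma adjusted p = 0.158) did not pass. Mxd3, the member tied to dividing cells, read 9.21, 9.25 and 9.18 against 9.30, 9.27 and 9.20, with overlapping groups and a difference of 0.05 (limma adjusted p = 0.762). Of the 4 repressor partners 2 thus rose and 2 did not pass, the latter with opposite signs.

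**Figure D2:**
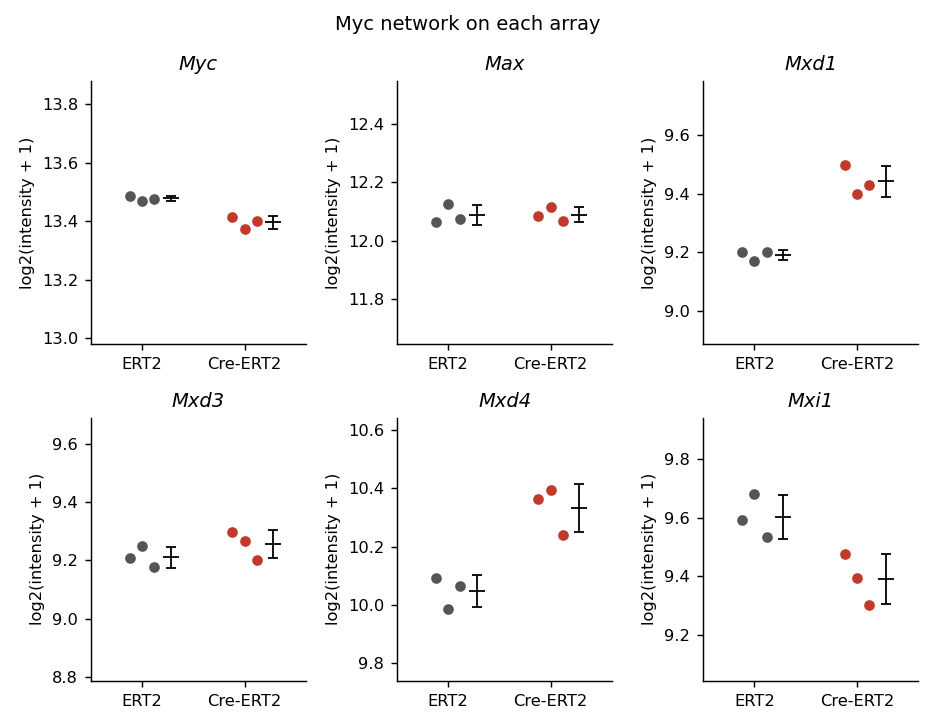
Log2(intensity + 1) of the 6 network genes on each array (points; grey ERT2, red Cre-ERT2) with mean and SD beside them; every panel spans the same 0.9 log2 units. Mxd1 and Mxd4 are higher, and Myc and Mxi1 lower, on all 3 Cre-ERT2 arrays, while Max and Mxd3 overlap.

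Genes of the wider network showed no call in either direction (0 of 8 higher, 0 lower; median -0.05). Zbtb17, the zinc-finger partner through which Myc represses, had a difference of -0.20 (limma adjusted p = 0.0968), and Mlxip, a glucose-sensing relative, -0.21 (0.146). Mycn, the close paralog of Myc, had -0.13 (0.360) and Mga, a Max-binding repressor, -0.08 (0.617). Of 9 measured genes that act on Myc protein 2 rose, 0 fell and 4 had a negative difference (median 0.09). Pim2, a kinase known to stabilise Myc, rose by 0.43 (SE 0.054, limma adjusted p = 0.0054), from 11.12, 11.14 and 11.06 to 11.52, 11.61 and 11.49. Usp36, a nucleolar deubiquitinase of Myc, rose by 0.25 (adjusted p = 0.0495), and its call ended without any 1 of the 6 arrays (0.0521 to 0.182; 0.21 to 0.28), under median centring (0.0638) and under robust fitting (0.0507). Pim1, the relative of Pim2, had -0.16 (0.186) and Aurka, a mitotic kinase that binds Myc proteins, 0.09 (0.429). The lists of further pathway genes are descriptions, with 873 of 19938 genes higher as their background.

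Of the 6 snoRNP members only Nolc1 passed the test. It encodes the nucleolar chaperone Nopp140, which carries snoRNPs to the nucleolus. It read 3947, 3793 and 3763 intensity units in ERT2 and 5171, 5225 and 5109 in Cre-ERT2 samples, or 11.95, 11.89 and 11.88 against 12.34, 12.35 and 12.32 on the log2 scale. The gap between the groups was many times the scatter within them. The rise was 0.43 (SE 0.046, limma adjusted p = 0.00263), to 135% of the control level, and it was called with each array left out in turn.

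The core proteins of the particles had smaller differences. Fbl, the methyltransferase of box C/D snoRNPs, had a difference of 0.05 (95% interval -0.09 to 0.19), and the core proteins Nop56 and Nop58 had -0.02 and 0.12 (-0.13 to 0.08 and -0.02 to 0.26). Rrp9, a protein of the snoRNP that guides early cleavage, had 0.01, and Dkc1, the pseudouridine synthase of box H/ACA particles, 0.04. For none of these 5 did the interval reach the Nolc1 difference. Of 10 further snoRNP genes 1 rose and 0 fell: Nhp2, a core protein beside Dkc1, by 0.30 (SE 0.057, limma adjusted p = 0.0298), from 11.18, 11.17 and 11.04 to 11.40, 11.44 and 11.44. It held only with ERT2 replicate 2 left out, and not with another array removed (0.0562 to 0.129; 0.25 to 0.33). Tgs1, which caps small nuclear RNAs, had 0.19 (0.203), Nop10 0.15 (0.219) and Gar1 0.07 (0.498), the last pair being further H/ACA core proteins.

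For the small subunit, Utp20 rose. Utp20 is a large scaffold protein of the complex that processes the small subunit's RNA. It read 2384, 2584 and 2219 intensity units in ERT2 and 2958, 3436 and 3248 in Cre-ERT2 samples, that is 11.22, 11.34 and 11.12 against 11.53, 11.75 and 11.67 on the log2 scale. The groups did not overlap, and the scatter was wide in both. The rise of 0.42 (SE 0.082, limma adjusted p = 0.0322), to 134% of control, was not called in 4 of the 6 fits that left an array out: ERT2 replicate 1 (0.42, limma adjusted p = 0.114) or 3 (0.37, 0.0972), and Cre-ERT2 replicate 2 (0.37, 0.114) or 3 (0.41, 0.126).

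Rrp12, an export and maturation factor, read 9.59, 9.66 and 9.48 in ERT2 and 9.81, 9.82 and 9.90 in Cre-ERT2 samples. Its difference of 0.27 (SE 0.063, limma adjusted p = 0.0660) missed the threshold, and it passed without ERT2 replicate 2 (0.31, adjusted p = 0.0499). Wdr43, of the same early complex as Utp20, had 0.09, with overlapping groups. Of 38 further small subunit genes 1 rose and 0 fell, with a median of 0.09. The risen gene was Utp3, another factor of the early complex, which went from 9.53, 9.58 and 9.42 to 9.94, 9.97 and 9.98, a rise of 0.45 (SE 0.056, limma adjusted p = 0.00511). Utp14a, an early helicase cofactor, had -0.24 (0.0704), Nat10, an RNA acetyltransferase, 0.22 (0.108) and Nop14 0.23 (0.122).

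**Figure D3:**
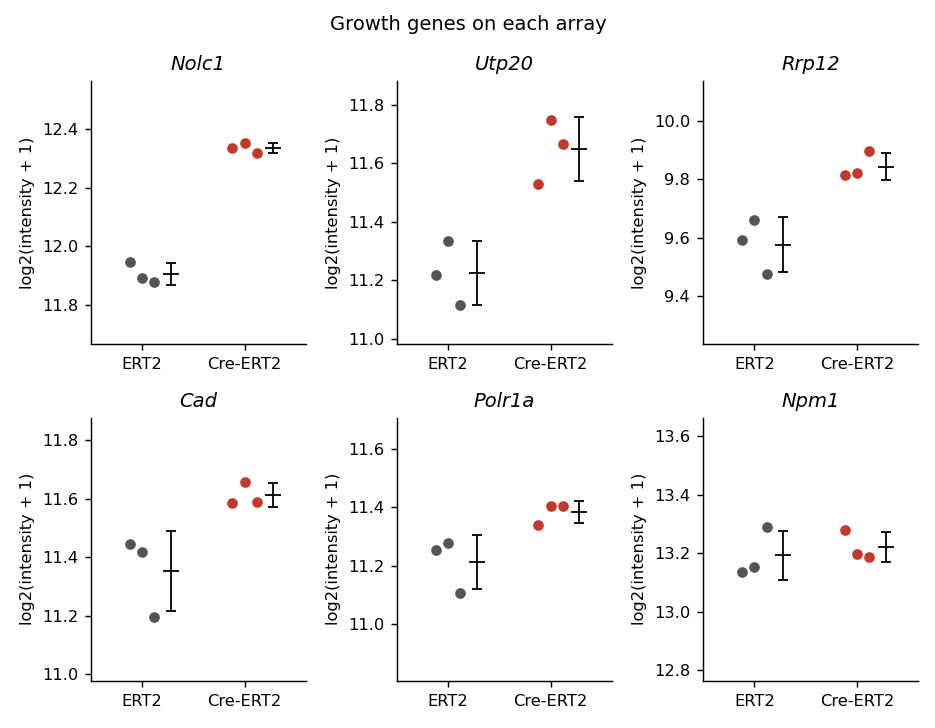
Log2(intensity + 1) of 6 target genes on each array (points; grey ERT2, red Cre-ERT2) with mean and SD beside them; every panel spans 0.9 log2 units. Nolc1 and Utp20 rose; Rrp12, Cad and Polr1a separate by array without passing adjusted p under 0.05, and Npm1 overlaps.

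None of the 7 members around RNA polymerase I and the nucleolar proteins passed (0 higher, 0 lower; differences 0.00 to 0.17). Polr1a and Polr1b, the catalytic pair of large subunits, had 0.17 (95% interval 0.02 to 0.32) and 0.12 (-0.01 to 0.25). Both were higher on all 3 Cre-ERT2 arrays than on any control. The helicase Ddx21 had 0.13 and the nucleolar regulator Mybbp1a 0.10, again without overlap. Nucleolin (Ncl) had 0.08, also without overlap. Such separation held for 5 of these 7 members (71.4%). The share was 17.5% of all genes and 27.1% of genes at least as bright as the dimmest target. Nucleophosmin (Npm1) read 13.14, 13.15 and 13.29 against 13.28, 13.20 and 13.19, a difference of 0.03 with overlapping groups, and Gnl3, a nucleolar GTPase, had 0.00.

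A further gene of the polymerase fell. Znrd1, which encodes a small subunit of RNA polymerase I, read 11.05, 11.13 and 10.98 in ERT2 and 10.41, 10.39 and 10.27 in Cre-ERT2 samples. The groups were far apart. It fell by 0.70 (SE 0.064, limma adjusted p = 0.00141), the 1 call among 13 further polymerase I genes (0 higher, median 0.07), and the call held with each array left out. Ubtf, the factor that opens ribosomal DNA, had 0.16 (0.15), and the subunits Polr1e and Cd3eap had 0.14 (0.187) and 0.13 (0.202). Znrd1 thus opposed the sign of Polr1a and Polr1b.

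The 7 measured members of the large subunit branch had differences from 0.02 to 0.16, and 0 passed in either direction. Bop1, Pes1 and Wdr12 form a single complex of ribosome assembly. Bop1 had 0.16 (95% interval 0.04 to 0.28), Pes1 0.08 (-0.06 to 0.23) and Wdr12 0.06 (-0.05 to 0.16). The values ran from 11.16 to 11.28 in ERT2 and from 11.37 to 11.39 in Cre-ERT2 samples for Bop1, whose groups did not overlap, whereas those of Pes1 did. Nip7, a late RNA-binding factor, had 0.13, the RNA methyltransferase Nop2 0.05, Nop16 0.03 and Rrs1 0.02. Of 33 further large subunit genes 1 rose and 0 fell (median 0.07). It was Tma16, a ribosome-associated factor, up by 0.38 (SE 0.063, limma adjusted p = 0.0175), from 9.88, 10.06 and 9.90 to 10.29, 10.35 and 10.35. With 1 array removed it stayed called for ERT2 replicate 2 alone (otherwise 0.0533 to 0.0865; 0.35 to 0.40). Brix1 had 0.22 (0.0547), Noc3l 0.18 (0.0895) and Rrp15 0.26 (0.122), all assembly factors with no overlap between groups. They were named for a small p, which favours such separation. Every Cre-ERT2 array lay above every control in 16 of the 33 genes (48.5%) and in 3 of the 7 members (42.9%). That held for 17.5% of all genes and 27.1% of genes at least as bright as the dimmest target.

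All 4 metabolic and chaperone members lay higher on every Cre-ERT2 array than on any control, and 0 of 4 passed. Such separation held for 27.1% of genes at least as bright as the dimmest target and for 17.5% of all genes. Cad, the enzyme that starts pyrimidine synthesis, read 11.45, 11.42 and 11.20 in ERT2 and 11.59, 11.66 and 11.59 in Cre-ERT2 samples, a difference of 0.26 (SE 0.077, limma adjusted p = 0.138). The low value in ERT2 replicate 3 widened its error and also enlarged its difference. Without that array the difference was 0.18, and Cad was not called. Odc1, the first enzyme of polyamine synthesis, had 0.15 (0.197), Srm, the spermidine synthase, 0.10 (0.312), and Hspd1, the mitochondrial chaperonin, 0.10 (0.453). Among 26 further Myc-induced genes of metabolism and translation 1 rose and 0 fell (median 0.06). Tert, the telomerase catalytic subunit, rose by 0.45 (SE 0.085, limma adjusted p = 0.0293) at a dim level (7.83, 7.84 and 7.74 against 8.10, 8.41 and 8.25), and with 1 array removed it stayed called for Cre-ERT2 replicate 1 alone (otherwise 0.0601 to 0.110; 0.37 to 0.47). Ccnd2, which encodes cyclin D2, had 0.18 (0.0666), the amino acid transporter Slc7a5 0.20 (0.0832) and Eef1e1 -0.15 (0.176).

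Altogether 4 members had a second probe set. Odc1 gave 0.15 on both, Hspd1 0.07 on the second, Fbl 0.02 and Wdr12 0.17, where the brightest Wdr12 probe set gave 0.06. None of these 4 second probe sets passed the test, and all had the sign of the first.

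Ribosomal protein genes, the products that the assembly line uses, had no call: 55 of 79 were measured, 0 rose and 0 fell, and their median difference was 0.02, as for all genes (0.02). The share above 0 was 78.2% (43 of 55), against 59.3% of all genes and 61.4% of those at least as bright as the dimmest target. In 16 of 55 (29.1%) every Cre-ERT2 array lay above every control, against 17.5% of all genes and 27.1% of the bright ones. The 29.1% is near the bright share. Averaged over the 55 genes, the group difference was 0.037, without overlap. Many of these genes have near-identical copies in the genome, which probe sets may not separate. Rps21 had the smallest p (0.23, limma adjusted p = 0.0724), followed by Rpl13 (0.16, 0.179), Rps12 (0.14, 0.237) and Rps19 (0.13, 0.296). At an unadjusted p under 0.05 there were 3 of 55 (5.45%), against 20.1% of all genes and 28.2% of the bright ones. Of 8 genes known to be repressed by Myc 1 rose and 0 fell (median -0.04). Ndrg2, a differentiation gene, rose by 0.31 (SE 0.057, limma adjusted p = 0.0259), and with 1 array removed it stayed called for ERT2 replicate 3 alone (otherwise 0.0567 to 0.105; 0.28 to 0.34). Gadd45b had 0.30 (0.111), Gadd45a -0.34 (0.141) and Ndrg1 -0.18 (0.134), all stress-response genes.

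**Figure D4:**
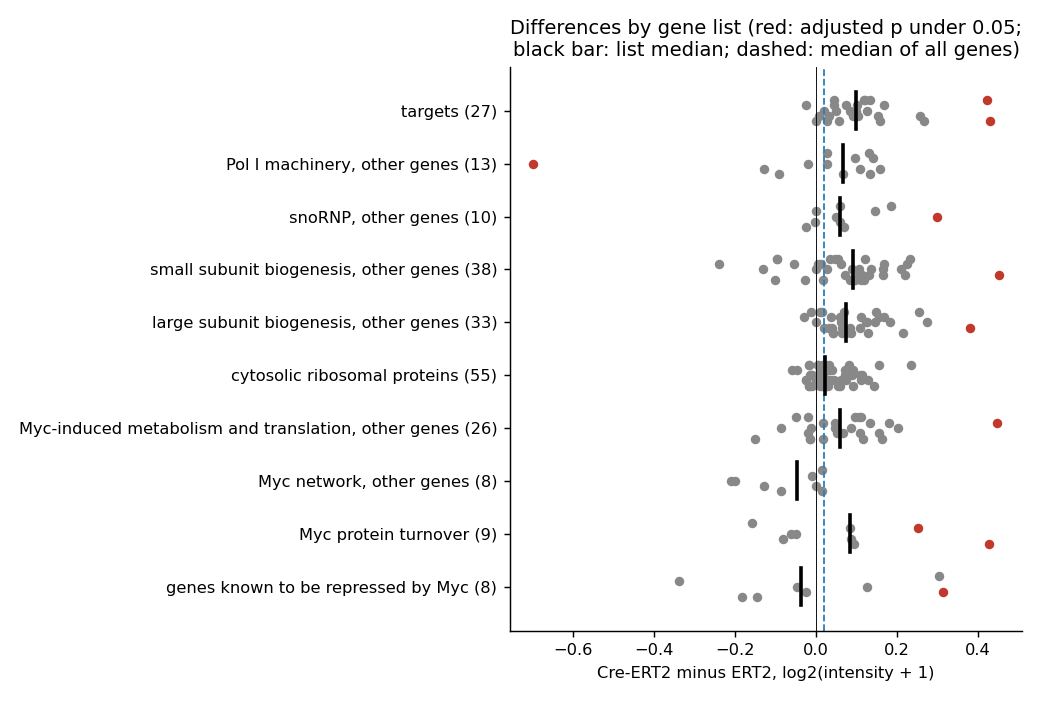
Log2 differences (Cre-ERT2 minus ERT2, 3 arrays each) of single genes by list, with the number measured in brackets; red points passed adjusted p under 0.05, black bars are list medians and the dashed line is the median of all genes, 0.02. The further lists of ribosome assembly have medians from 0.06 to 0.09, the targets 0.10, ribosomal proteins 0.02, and Znrd1 lies alone at -0.70.

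The targets were chosen with earlier results of these data known, so the set was not tested. As a set, they shifted little but in the same sense. Their median difference was 0.10, against 0.02 for all genes and 0.03 for genes at least as bright as the dimmest target, and the share above 0 was 96.3% against 59.3% and 61.4%. In 16 of 27 targets (59.3%) every Cre-ERT2 array lay above every ERT2 array, which held for 17.5% of all genes and 27.1% of the bright ones. The bright genes are not matched to the targets for level: the median log2 levels were 11.07 and 12.29. In the further snoRNP, small subunit and large subunit lists the share was 50%, 50% and 48.5%. The 95% interval lay above 0 for 9 of 27 targets (33.3%), against 18.2% of the bright genes. It reached past a difference of 0.5 for 2 targets, Nolc1 and Utp20. Single-gene errors had a median of 0.051, so a shift of 0.10 is about the size that 3 arrays a group leave unresolved for 1 gene.

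How the target shift relates to Myc was read array by array, as deviations from the mean of all 6 arrays. Averaged over the 27 targets they were -0.064, -0.024 and -0.089 in ERT2 replicates 1 to 3 and 0.051, 0.067 and 0.059 in Cre-ERT2 replicates 1 to 3. The deviations of Myc were 0.050, 0.034 and 0.039, and then -0.022, -0.065 and -0.036. The targets were thus higher, and Myc lower, on all 3 Cre-ERT2 arrays than on any control, which is 1 contrast between groups. The group difference of the targets, 0.12, and that of Myc, -0.08, had opposite signs. Both are RNA readings, and neither the amount nor the activity of Myc protein was measured. No correlation was computed: 3 arrays a group are too few for one within a group, and across the groups it would only repeat the comparison.

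The bright genes as a whole also moved between arrays, by -0.017, 0.037 and -0.067 in ERT2 and 0.004, 0.035 and 0.009 in Cre-ERT2 samples. Their group difference was 0.03 and the groups overlapped. ERT2 replicate 3 was the lowest control for 16 of 27 targets and ERT2 replicate 2 the highest for 16, as for the bright genes. With the bright genes subtracted, the targets stood at -0.047, -0.061 and -0.022 in ERT2 and 0.047, 0.033 and 0.050 in Cre-ERT2 samples, still without overlap. Centred in this way, 22 of 27 targets had a difference above 0, the median was 0.07 and Myc was at -0.11 (limma adjusted p = 0.358). Nolc1 and Utp20 kept their calls, and Mxd1 (0.22, adjusted p = 0.103) and Mxd4 (0.25, 0.110) did not.

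**Figure D5:**
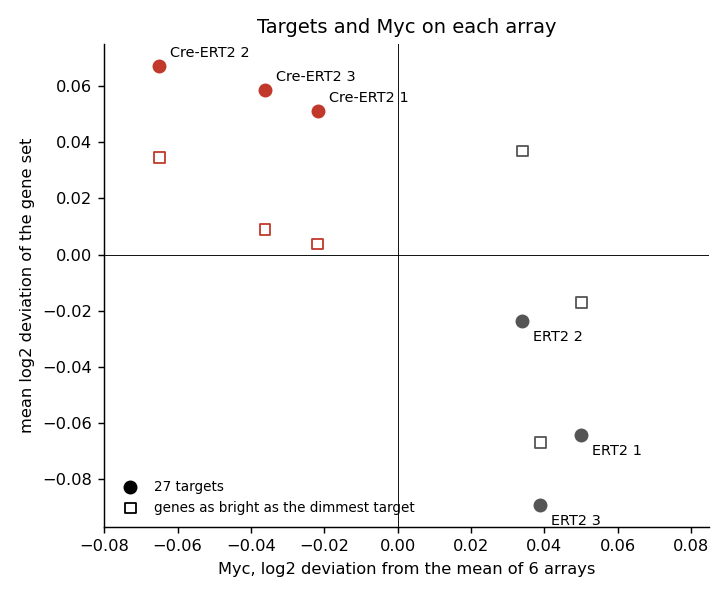
Each array's mean log2 deviation over the 27 targets (filled) and over genes at least as bright as the dimmest target (open squares) against the deviation of Myc on the same array; grey is ERT2, red Cre-ERT2. The Cre-ERT2 arrays lie at lower Myc (-0.065 to -0.022) and higher targets (0.051 to 0.067), while the open squares of the groups overlap.

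The targets scattered less after Cre-ERT2: the SD over 3 arrays had a median of 0.049 in ERT2 and 0.027 in Cre-ERT2 samples and was larger in ERT2 for 23 of 27 targets (85.2%). The bright genes as a whole shared this, at 80.1%, with median SDs of 0.069 and 0.037. ERT2 replicates 2 and 3 marked the ends of the control range. This difference in spread was not tested.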

How the data were processed

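Expression was measured on 1 Affymetrix array per sample in 3 ERT2 and 3 Cre-ERT2 samples. The deposited intensities came from RMA, per the submitters' processing notes, a method that corrects background, quantile-normalizes and summarises probe sets; no software version, annotation or build was given in the sources used. The authors' intensities are linear (array medians 273 to 279), so log2(intensity + 1) was used. Quantile normalization hides a shift common to all genes.

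Of 35556 probe sets, 21789 listed 1 gene, 1621 several and 12146 none; a gene was read from its brightest single-gene probe set. limma 3.58.1 in R 4.3.3 (lmFit, eBayes, no covariates, 6 arrays) compared the groups. The p-values were adjusted by Benjamini-Hochberg across every probe set, and the threshold was 0.05. A member so called is said to have risen or fallen. The procedure was tested on simulated data. Lists of 266 further pathway and marker genes had 229 measured. Values per array are given for the network and for members with unadjusted p under 0.01; of each further pathway list up to 4 genes with the smallest p are named. Cad, Polr1a, Npm1 and Bop1 were given in more detail after their values were seen. Members and lists were chosen with earlier results of these data known. Alternatives were another pseudocount, the brighter probe sets, centring, quantile normalization, a replicate block, trend and robust fitting, single-gene probe sets alone, averaged probe sets, and each array left out; centring on bright genes was chosen after seeing the data.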

Additional observations from a re-analysis of the deposited data

How the results depend on the processing

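The difference of Myc kept its sign and stayed short of the threshold under all 16 alternatives (-0.11 to -0.07), no member was called lower under any, and the gap between the mean target difference and Myc stayed between 0.18 and 0.22. The number of members called higher was 4 as reported, 2 under the replicate block, 2 with centring on bright genes, and 1 to 3 with an array left out. The median target difference, 0.099, was 0.0676 with centring on bright genes and 0.0730 to 0.125 with an array left out. Nolc1 was called under all 16. Mxd4 lost its call under median centring (limma adjusted p = 0.0672), and Mxd1 and Mxd4 lost it under a further quantile normalization (0.0969 and 0.121), where Rrp12 gained it (0.0360) and 23 of 27 targets were above 0. Srm was called with an intensity trend (0.0322), Rrp12 among the brighter probe sets (0.0294), and Rrp12 and Cad when single-gene probe sets alone were tested (0.0194 and 0.0486). Deviations of same-numbered arrays had r of 0.205, 0.344 and -0.049 over probe sets, and those of differently numbered arrays -0.430 to 0.325. So few arrays cannot decide whether the numbers pair the samples. No pairing was assumed in the main fit. With the replicate block Mxd1 (0.0706) and Mxd4 (0.101) lost their calls, as did Usp36 (0.0817), Nhp2 (0.0731), Tert (0.0501) and Ndrg2 (0.0518). Ndrg2 also lost it with centring on bright genes (0.0961). The number of arrays limits the precision.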
